A study of Mus musculus with 18 samples.

Results

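Binding of the mouse transcription factor ATF1 to DNA with 5-hydroxymethylcytosine (5hmC) was compared with its binding to unmodified DNA on 4 protein binding microarrays, 2 with each kind of DNA, out of 18 arrays in the series. The 4 arrays were chosen by their labels alone. On a protein binding microarray a tagged protein is applied to an array of double-stranded DNA probes, and the bound protein is read by fluorescence at each probe. The protein was the basic leucine zipper (bZIP) DNA-binding domain of ATF1 with 15 flanking residues on each side, fused to glutathione S-transferase and made in a cell-free transcription and translation reaction, so full-length ATF1, its partners and chromatin were not part of the assay. The probes were made double-stranded on the array by primer extension with unmodified cytosine (C), with 5-methylcytosine (5mC) or with 5hmC. Each C of the newly made strand was thus of the chosen kind, the printed strand always had ordinary C, and a CpG was modified on 1 of its strands only. A further 2 ATF1 arrays with 5mC and 6 arrays of the related protein CREB1 served for comparison. Whether the 2 arrays of a group were made with separately prepared protein is not stated in the labels; p-values therefore cover no more than the variation between these arrays, which may be technical.

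ATF1 belongs to the CREB family of bZIP proteins, which bind DNA as dimers through a long helix in the major groove, each monomer contacting one arm of the site. Their preferred site is the cAMP response element (CRE), a palindrome with a CpG at its centre, and promoters of cAMP-responsive genes often hold a full CRE or only one arm of it. C/EBP proteins, another bZIP family, recognise the arm GCAA, and a CRE arm joined to a C/EBP arm is a composite site. 5mC is the usual mark at CpG, and 5hmC arises from it by oxidation by the TET enzymes; methylation of the CpG is known to weaken binding of CREB proteins to the CRE. The series title names as its question the effect of 5mC and 5hmC on binding of CREB1 to GCAA, and the ATF1 arrays put the same question to its close relative.

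The sites below carry the main results. Each is written 5′ to 3′ as it reads on the synthesized strand, so each C shown carries the hydroxymethyl group on the 5hmC arrays and each G faces an unmodified C.
CRE palindrome: TGACGTCA
CRE arm next to a PAR-type arm: TGACGTAA
the same in reverse: TTACGTCA
CRE-C/EBP chimera: TGACGCAA
the same in reverse: TTGCGTCA
CpG-free composite: TGATGCAA
the same in reverse: TTGCATCA
C/EBP palindrome: TTGCGCAA
The CpG-free composite differs from the chimera by the substitution C4T, counted from the 5′ end of the chimera, and holds a single C on the modified strand.

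Binding to an 8-base sequence (8-mer) is given as the z-score the authors deposited, a linear score with a median near 0 on each array. The z-scores ranked with the background-subtracted signal of probes holding the 8-mer on the synthesized strand (across 8-mers, Spearman rho lay between 0.961 and 0.969 on the 6 ATF1 arrays, given as a description), and an 8-mer and its reverse complement are separate measurements. The 65121 tested 8-mers were each carried by a median of 17 probes of 40330. The 5hmC arrays were dimmer. Their median probe signal was 1472.5 and 1501 fluorescence units, against 2638.5 and 3291 with C, and the median signal was 2.28 and 2.45 times the local background against 3.10 and 3.36. Replicate arrays correlated less with 5hmC (Pearson r of 0.651 across 8-mers) than with C (0.951). The scales differed between arrays: 1 unit of z was worth about 191 and 197 fluorescence units on the 5hmC arrays and 424 and 573 on the C arrays. At the top of the range, 56 and 84 probes were saturated on the C arrays and 2 on each 5hmC array. A fall from a saturated value is a lower bound.

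With 5hmC, ATF1 z-scores fell at CRE-like sites, and the largest rise was that of the CpG-free composite TGATGCAA. Most rises were small. Of the 292 8-mers that rose, 219 were in none of the site lists, as were 59540 of the 65121 tested. Outside the lists 0.368% rose, against 0.448% of all 8-mers. ATGCAA was in 19 of the 292 and in 0.0737% of all 8-mers. By limma with Benjamini-Hochberg adjustment over all 8-mers, 3549 (5.45% of those tested) changed, of which 3257 (5.00%) were lower and 292 (0.448%) were higher. All of the called 8-mers had arrays that did not overlap between C and 5hmC, as had 45.1% of all 8-mers. The median fall was -3.40 z units and the largest -107, while the median rise was 2.11 and the largest 36.9. Falls of 10 or more units numbered 320, and rises of that size 3. Rises made up 8.23% of the calls on the z-score scale, 27.2% when log2 signal medians of the carrying probes replaced the z-scores, and 21.9% after quantile normalization. Every one of the 292 rises was also positive on the log2 scale, and 3250 of the 3257 falls were negative there. The log2 values come from the same arrays, so this agreement in sign is no independent support. By limma on the log2 scale 237 of these rises and 2788 of these falls passed. The counts moved with single arrays: rises numbered 53 and 27 without C replicate 1 and 2, and 688 and 1447 without 5hmC replicate 1 and 2, and falls numbered 2037 and 2041 without C replicate 1 and 2. With the spread shared over all 18 arrays of the series, 1353 falls and 65 rises passed.

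**Figure D1:**
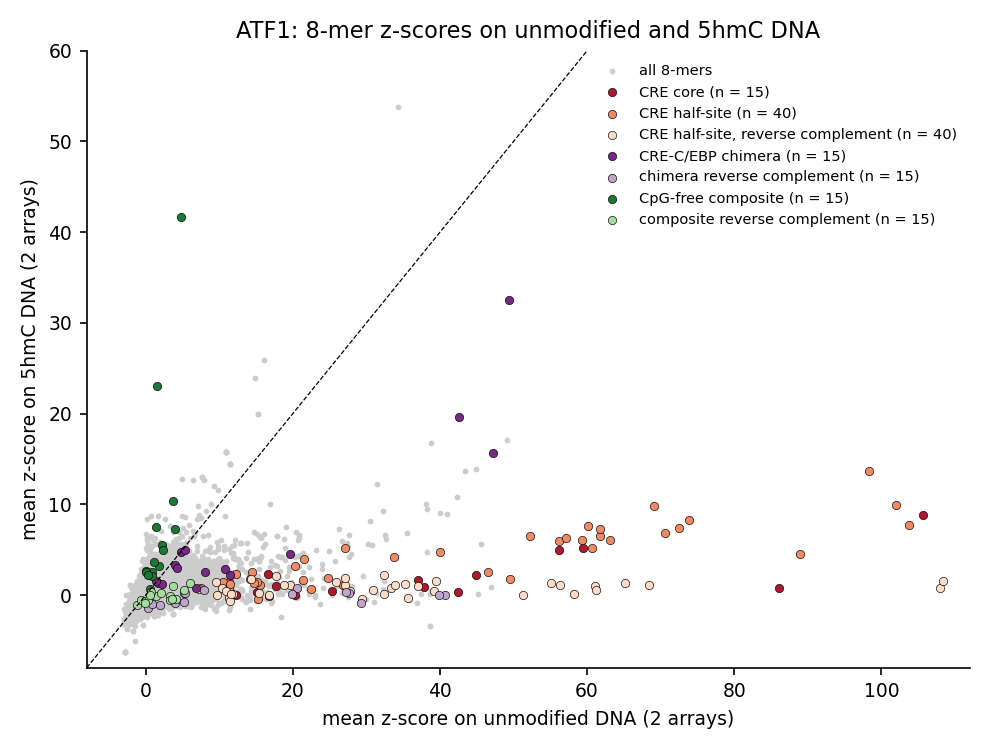
Mean deposited z-score of each 8-mer on the 2 unmodified arrays (horizontal axis) and on the 2 5hmC arrays (vertical axis), with the members of 7 site lists coloured and equal values on the dashed line. CRE-like 8-mers reach 108 on unmodified DNA and at most 13.7 with 5hmC, while a few CpG-free composite 8-mers lie far above the line, the highest at 41.7.

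The CRE itself fell on both arrays. TGACGTCA had z-scores of 121 and 89.7 with C and of 8.94 and 8.77 with 5hmC, a difference of -96.7 ± 6.83 (SE; adjusted p = 2.67e-06). Most of its carrying probes were saturated with C (11 and 12 of 19), so the fall is a lower bound. TGACGTAA, which keeps the CRE arm TGACGT on the modified strand, had 103 and 93.8 with C and 15.7 and 11.6 with 5hmC, the highest 5hmC level among CRE arms. Its reverse complement TTACGTCA went from 53.7 and 58.9 to 1.35 and 0.81, so that in this orientation both 5hmC values lay near 0, the array median. The largest fall of all was that of ACGTCACA, from 123 and 92.5 to 0.19 and 1.37.

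All members of the CRE lists fell. These were 15 of 15 8-mers with the CRE core (TGACGTC or GACGTCA), 40 of 40 with the arm TGACGT and 40 of 40 with the arm ACGTCA outside the core, beside the 5.00% of all 8-mers that were lower. They also all fell when any single array was left out, on the log2 scale and without saturated probes; with all 18 arrays in the fit 13, 32 and 34 passed, and all kept their sign. After quantile normalization 15, 32 and 39 passed. With 5hmC the arm TGACGT stood above the arm ACGTCA. Its 40 members averaged 44.0 and 41.0 with C and 4.50 and 4.15 with 5hmC, while those of ACGTCA averaged 35.8 and 33.1 with C and 0.72 and 0.87 with 5hmC. The PAR site, bound by bZIP proteins of the PAR family, also fell in 15 of 15 8-mers (10 after quantile normalization and 6 with all 18 arrays); its palindrome TTACGTAA went from 37.9 and 33.2 to 7.11 and 6.59.

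**Figure D2:**
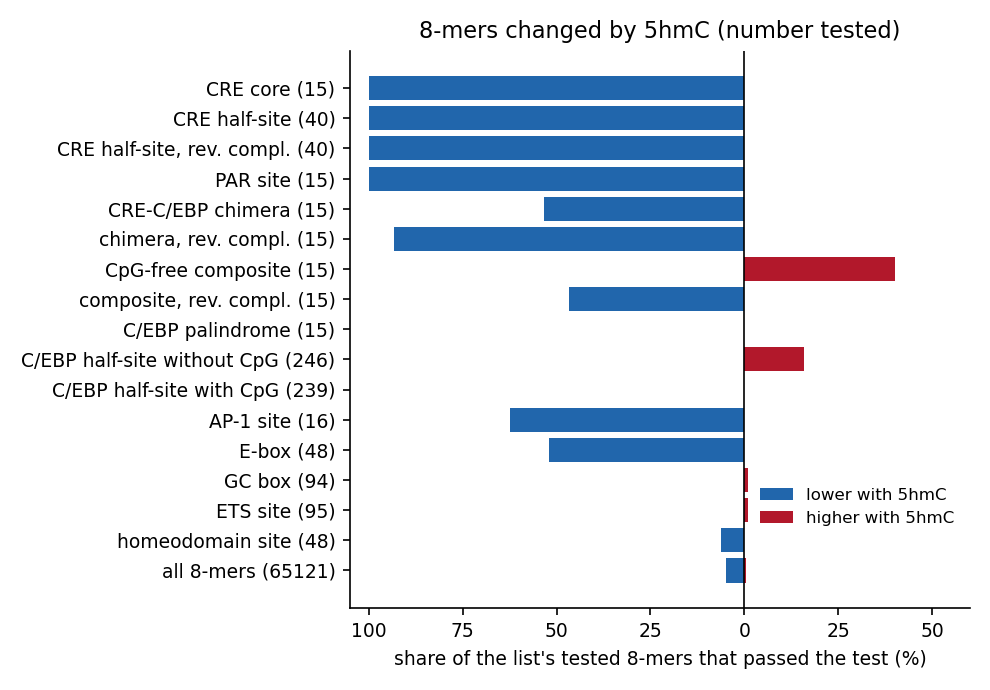
Share of each list's tested 8-mers (number in brackets) that passed the test as lower (blue, to the left) or higher (red, to the right) with 5hmC than with C, in percent. The CRE and PAR lists are lower in all members, and 40% of the CpG-free composite list and 15.9% of the C/EBP half-site without CpG are higher. The C/EBP palindrome has none of 15 in either direction. Of all 8-mers 5.00% are lower and 0.448% higher.

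Single probes with the same site kept very different signals with 5hmC. The 19 probes with TGACGTCA had a median of 65527 on both C arrays, 24.8 and 19.9 times the array median, and of 3035 and 2949 on the 5hmC arrays, 2.06 and 1.96 times the array median. On log2 signals after background correction and median centring, where the median change over all 40330 probes was 0.25, 16 of the 19 were lower by limma (9 after quantile normalization), among them all 7 that were saturated on no ATF1 array. Of all probes 1984 (4.92%) were lower and 786 (1.95%) higher, the higher ones being 28.4% of the calls, or 5.58% without background correction. The probes below include the highest and the lowest log2 change of the 19. Capitals mark the CRE.
HK14808: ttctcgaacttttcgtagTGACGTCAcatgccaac
HK00406: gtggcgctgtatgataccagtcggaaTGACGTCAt
HK06813: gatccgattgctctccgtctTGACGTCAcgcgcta
All of these were saturated on both C arrays. With 5hmC, HK14808 still read 39531.5 and 39917 and HK00406 read 17779 and 21015.5, whereas HK06813 read 1760 and 2518, close to the array median, a change of -5.14 on the log2 scale. HK14808 passed the test as higher only relative to the array median, and its direction is unknown because its C value is capped.

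Of the 84 probes saturated on a C array (56 on both), 82 carried TGACG or CGTCA, which 5.83% of all probes carry. Among them 73 were lower with 5hmC and 5 were called higher, which for saturated probes gives no direction. Their median log2 change was -3.03, a lower bound, and their median signal with 5hmC was 3210.5 and 3506.25.

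**Figure D3:**
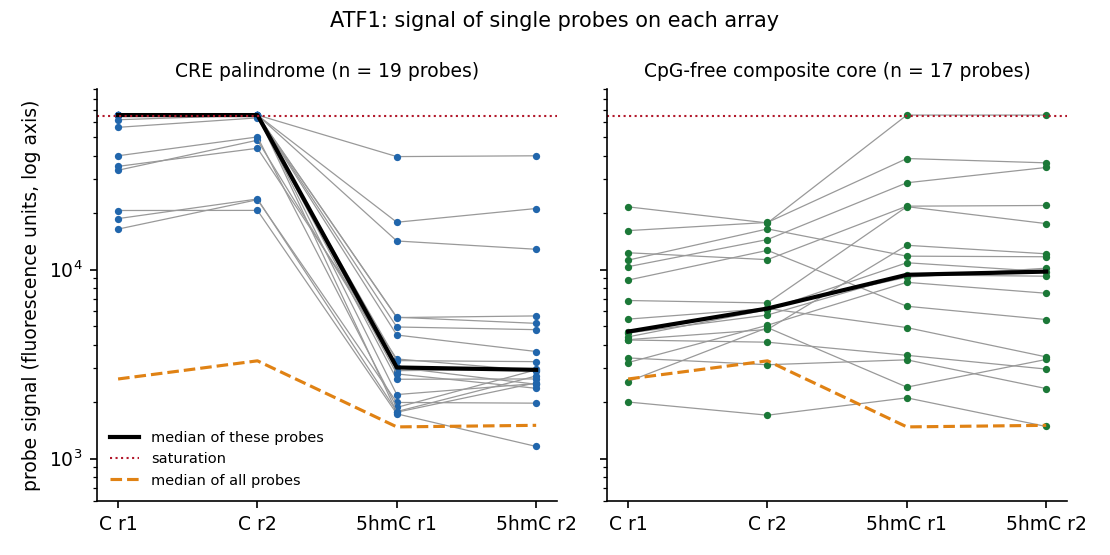
Signal of each probe (points, lines join 1 probe over the 4 arrays; log axis, fluorescence units) that carries the CRE palindrome (left, 19 probes) or the CpG-free composite core (right, 17 probes) on the synthesized strand, with their median, the median of all probes and the saturation limit. The median of the CRE probes drops from 65527 to 3035 and 2949. That of the composite probes rises from 4697 and 6222 to 9379 and 9750.5 although the median of all probes fell.

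Single-base variants of the CRE fell as well. Of the 24 8-mers that differ from TGACGTCA at 1 position, 23 were lower with 5hmC and none was higher. Among all 8-mers 5.00% were lower and 0.448% higher. Of the 24, 18 averaged at least 4 z units with C and 3 did so with 5hmC. The variant with C4T, TGATGTCA, which removes the CpG but keeps a C at position 7, went from 17.2 and 16.2 to 1.29 and 3.00. The variant with C7T, TGACGTTA, went from 28.0 and 26.1 to 5.18 and 5.22. The variant that stayed highest was TGACGTAA, with C7A.

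Other sites with ACGT followed the CRE at lower levels. Outside the CRE, PAR and E-box lists, 714 of 1120 8-mers with ACGT were lower (5.00% of all 8-mers were) and none was higher, with a median change of -2.90 z units. The E-box CACGTG, the site of basic helix-loop-helix proteins, was lower in 25 of 48 8-mers, with means of 4.19 and 4.11 with C and 1.29 and 0.90 with 5hmC; CCACGTGG itself, at 2.77 and 2.73 with C and 1.28 and -0.01 with 5hmC, did not pass (adjusted p = 0.0565). The AP-1 site TGACTCA, which has no CpG, was lower in 10 of 16. Its 8-mer TGAGTCAT went from 7.52 and 6.90 to 2.66 and 1.00. TGAC in 8-mers without CpG was lower in 144 of 848 and its reverse complement GTCA in 266 of 848. The E-box count was 17 without either C array, 8 after quantile normalization and 3 with all 18 arrays. The AP-1 count was 6 without C replicate 1, 4 after quantile normalization and 0 with all 18 arrays.

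The CRE-C/EBP chimera stood much higher with 5hmC than the CRE in 1 orientation and near 0 in the other. TGACGCAA had 56.4 and 42.4 with C and 37.7 and 27.3 with 5hmC, a difference of -16.9 ± 4.22 (adjusted p = 0.0352), and it was the second highest 8-mer with 5hmC among those carried by 10 or more probes. The C and 5hmC arrays did not overlap, but the direction depended on the scale: the log2 change was -0.39 (adjusted p = 0.209) and the quantile-normalized change was 32.6. Its fall did not pass without C replicate 1 (-9.90), without 5hmC replicate 2 (-11.7), with only the 4 arrays of C and 5hmC (adjusted p = 0.0914) or with all 18 arrays (adjusted p = 0.606). Its reverse complement TTGCGTCA, with 29.3 and 25.1 with C, fell to 1.81 and -1.16. The within-array difference of TGACGCAA over TTGCGTCA was 27.1 and 17.3 with C and 35.9 and 28.4 with 5hmC. By limma this difference changed by 10.0 ± 43.0 z units (SE moderated with a mean-variance trend; adjusted p = 0.954) and did not pass. Without the trend it did not pass either (adjusted p = 0.096). On the log2 scale the change was 2.83 ± 0.39 (adjusted p = 0.000124). Over the lists, 8 of 15 8-mers with the chimera were lower and 14 of 15 of their reverse complements, beside 5.00% of all 8-mers. With all 18 arrays these counts were 0 and 9, and after quantile normalization 0 and 13. After quantile normalization 1 chimera 8-mer was higher, and 8 of the 15 chimera changes were positive. The related ATGACGCA stood at 22.0 and 17.3 and GATGACGC at 17.1 and 17.1 with 5hmC, both lower than with C (46.6 and 38.7; 48.7 and 49.4) although quantile normalization turned both changes positive (21.2 and 11.4). Of the 2 probes saturated on both 5hmC arrays, 1 carried the chimera (capitals). It was saturated on all 4 arrays, so that its change is unknown.
HK27478: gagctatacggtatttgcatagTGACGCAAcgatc

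The largest rise was at the CpG-free composite. TGATGCAA had z-scores of 4.61 and 4.99 with C and 42.9 and 40.5 with 5hmC, a difference of 36.9 ± 3.18 (adjusted p = 1.53e-05) and more than at any other 8-mer. It became the highest 8-mer with 5hmC among those carried by 10 or more probes. GATGCAAT, shifted by 1 base, went from 1.396 and 1.73 to 26.8 and 19.4. On both 5hmC arrays each was far above both C arrays. Both rises passed without any single array, on the log2 scale, without saturated probes and after quantile normalization; with all 18 arrays they missed the threshold (adjusted p = 0.304 and 0.131). In the list, 6 of 15 8-mers were higher and none lower, beside 0.448% of all 8-mers, and all 15 changes were positive. The count was 4 without C replicate 1, 2 without C replicate 2 and 0 with all 18 arrays. The reverse complements moved the other way, with 7 of 15 lower and none higher; TTGCATCA went from 3.15 and 4.15 to -0.999 and 0.08 (adjusted p = 0.00104).

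The rises of TGATGCAA and GATGCAAT were also present before any scaling. On the raw background-subtracted scale 99.7% of the 8-mers were dimmer on both 5hmC arrays than on both C arrays, and only 3 were brighter: TGATGCAA, GATGCAAT and TGCAATAG. The median signal of the TGATGCAA probes after background subtraction was 3742 and 5109.5 with C and 8835.5 and 9050 with 5hmC. Of the 292 8-mers called higher, 266 were dimmer in fluorescence on both 5hmC arrays, so that their rise is one relative to the other 8-mers of the array.

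Relative to the array median all 17 probes with TGATGCAA had a positive log2 change, from 0.78 to 3.91. Of these 12 passed the test as higher while none was lower (1.95% of all probes were higher). Between 10 and 13 passed as higher, and 0 as lower, under each alternative. Not all of the 12 were brighter in fluorescence on both 5hmC arrays. HK16829 read 4241 and 4129 with C and 3520 and 2977 with 5hmC, and HK10578 read 11210 and 16392, then 11765.5 and 11681.5. The sequences shown are the 2 with the highest signal with 5hmC and those with the largest and smallest change, with the composite in capitals.
HK36647: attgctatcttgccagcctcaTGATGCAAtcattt
HK22085: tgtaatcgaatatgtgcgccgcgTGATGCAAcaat
HK15473: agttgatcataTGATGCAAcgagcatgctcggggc
HK17739: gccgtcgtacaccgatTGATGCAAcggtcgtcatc
HK36647 read 21442 and 17626.5 with C and was saturated on both 5hmC arrays, so its log2 change of 3.60 is a lower bound. HK22085 went from 16055 and 17739 to 38613 and 36633, and HK15473 from 4258 and 4822 to 13431 and 12109. HK17739, at 8795 and 12628 with C, read 6395.5 and 5440 with 5hmC. This probe also holds CGTCA, whose share in its reading was not tested. The 11 GATGCAAT probes that do not hold TGATGCAA had a median log2 change of 2.69. Their median signals were 2688 and 3658 with C and 3440.5 and 2805 with 5hmC, so without the composite probes GATGCAAT was not brighter on both 5hmC arrays.

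Most single-base variants of the composite did not pass the test. Of the 24, 4 were called higher with 5hmC (0.448% of all 8-mers were). The chimera TGACGCAA was the 1 called lower (5.00% of all 8-mers were). The median over the 24 was 0.86 with C and 2.24 with 5hmC. TTATGCAA (G2T) rose from 2.65 and 2.52 to 7.81 and 8.96 (adjusted p = 0.00464), and CGATGCAA (T1C) stood at 1.84 and 1.04 with C and 7.60 and 7.405 with 5hmC. Replacing the single C on the modified strand gave levels far below that of TGATGCAA with 5hmC, as did most substitutions (median of 2.24 over the 24). TGATGTAA (C6T) had 3.69 and 8.08 with C and 5.69 and 3.95 with 5hmC. For TGATGAAA (C6A) the values were 3.57 and 3.61 with C and 2.71 and 1.36 with 5hmC. In the last position, TGATGCAT (A8T) had 1.93 and 2.84 with C and 4.10 and 5.82 with 5hmC. The lowest variant at position 7 was TGATGCCA (A7C), with 0.86 and 0.02 with C and 1.59 and 0.58 with 5hmC.

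Rises were more frequent among 8-mers with TGCAA, the C/EBP arm preceded by T, than among all 8-mers, although most of the 292 did not hold it. GCAA was in 65 of the 292 8-mers that rose (22.3%) and in 1.96% of all 8-mers, and TGCAA was in 44 (15.1%) and in 0.393%. Of the 48 8-mers with ATGCAA, 19 rose and none fell. Outside the composite list 39 of 246 8-mers with TGCAA were higher and none lower; 14 and 12 of these passed without C replicate 1 and 2, 59 without 5hmC replicate 2, and 2 with all 18 arrays, while 233 of the 246 changes were positive. TGCAATAA went from -0.38 and 0.78 to 9.70 and 7.03, ATGCAATA from 0.55 and 0.81 to 10.4 and 6.95, TATGCAAC from 2.10 and 1.26 to 8.51 and 9.04, and TGCAATAG from 0.02 and 0.09 to 7.28 and 6.16. GTGATGCA went from 4.52 and 3.04 to 11.0 and 9.80. Overlapping 8-mers share probes (ATGCAATA shares 4 with GATGCAAT and 5 with TGCAATAA), so these are not independent measurements. After A or G, GCAA was higher in 9 of 510 8-mers. The reverse complement TTGCA was higher in 2 and lower in 1 of 198.

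Of the 8-mers with C before the C/EBP arm, none of 239 with CGCAA outside the other lists passed in either direction, with means of 1.22 and 1.12 with C and 1.69 and 1.497 with 5hmC; on the log2 scale 15 were higher. Among all 8-mers 5.00% were lower and 0.448% higher. The C/EBP palindrome list had none of 15 in either direction, which at these shares does not set so short a list apart. Its core TTGCGCAA had 4.22 and 2.90 with C and 3.74 and 4.54 with 5hmC, a difference of 0.59 ± 1.22 z units, so the arrays overlapped. CTACGCAA had 10.8 and 6.19 with C and 8.42 and 4.87 with 5hmC, also overlapping. In reverse, TTGCG was lower in 27 of 239 and TTGCGTAG fell from 6.75 and 5.46 to 0.16 and -0.01.

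For some sites the change depended on which strand carried 5hmC, which was tested on the within-array difference between an 8-mer and its reverse complement. Of 32225 pairs 453 (1.41%) changed differently in their orientations on the z-score scale, and 194 (0.602%) on the log2 scale. The difference for TGATGCAA over TTGCATCA was 1.47 and 0.84 with C and 43.9 and 40.4 with 5hmC (adjusted p = 0.00495; log2 difference 4.19 ± 0.38, adjusted p = 6.80e-08). The z-score call was lost without either C array, with 10 or more probes and with all 18 arrays (adjusted p from 0.0517 to 0.518). TTATGCAA over TTGCATAA changed by 7.37 (adjusted p = 0.000894). Of 1228 pairs with GCAA in 1 orientation, 41 were called, beside 453 of all 32225 pairs. In each of the 41 the orientation with GCAA kept or gained more, as in the 31 called on the log2 scale.

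For CRE arms the 2 scales differed. Since TGACGTAA started much higher than TTACGTCA, it lost more z units (a difference of -29.5, adjusted p = 0.0428), but it lost less as a ratio (log2 change of -2.35 against -4.02, a difference of 1.66 ± 0.34, adjusted p = 0.0121). Over 254 pairs with TGACG in 1 orientation, 69 favoured TGACG and 32 favoured CGTCA by z-score, and 65 favoured TGACG and none CGTCA by log2 signal. The log2 difference was positive in 221 of the 254 (87.0%), with a median of 0.75. With 5hmC the z-score of TGACG was above that of its reverse complement on both arrays in 214 pairs, against 128 with C. The largest differences in favour of an orientation included TGTGACGT over ACGTCACA (50.2 z units; log2 difference 2.20) and CGATGACG over CGTCATCG (27.0; log2 difference 3.01). CTACGTCA over TGACGTAG, TACGTCAT over ATGACGTA and ACGTCACC over GGTGACGT were called by z-score (33.2, 38.2 and 26.6) but had log2 differences of the opposite sign (-0.53, -0.91 and -0.38). ACGTCAGC over GCTGACGT was positive on both scales, with 25.6 by z-score (adjusted p = 0.000248) and a log2 difference of 0.85 that did not pass (adjusted p = 0.298). GAGGGGAT and TTGAGGGG were also among the called pairs, but their reverse complements ATCCCCTC and CCCCTCAA rest on 1 and 2 probes with 1 shared and identical z-scores.

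**Figure D4:**
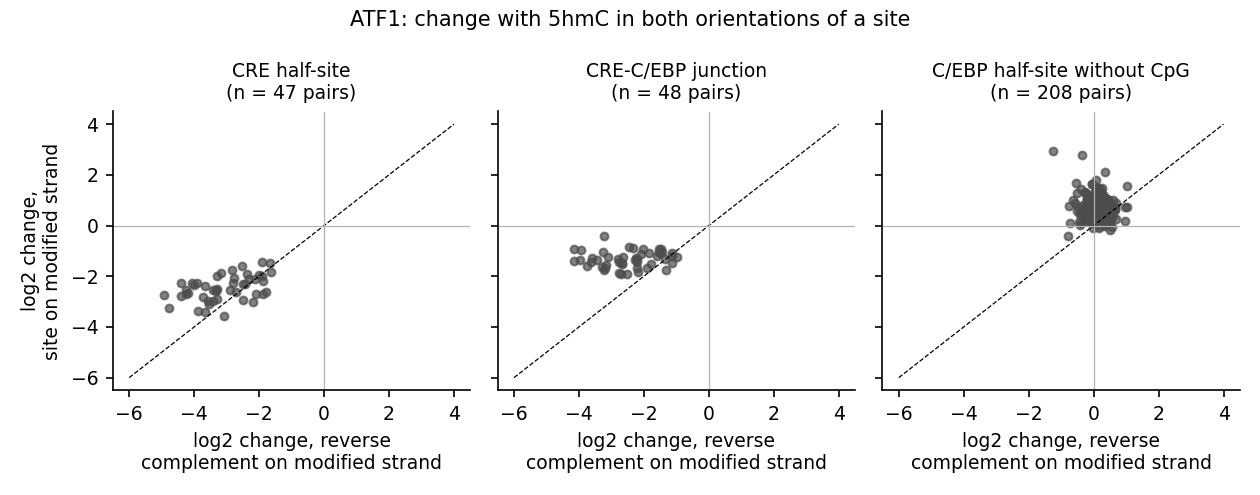
Change with 5hmC (log2 signal, centred on the array median) of 8-mers that hold a site on the modified strand (vertical axis) against the change of their reverse complements (horizontal axis), for the CRE half-site, the CRE half-site run into the C/EBP arm, and the C/EBP half-site without CpG; points on the dashed line changed equally. In 38 of 47, 44 of 48 and 175 of 208 pairs the log2 change was higher with the site on the modified strand.

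Fewer sites stood out with 5hmC. At a z-score of 4 or more on both arrays, 1550 8-mers were bound with C and 213 with 5hmC, and 148 were bound with both, which is 9.55% of the first and 69.5% of the second set. The other 65, bound with 5hmC but not on both C arrays, include GATGCAAT and TGCAATAA. A few of the strongest rises lie in C-rich sequence and are thinly carried: CCCCCGGC (34.2 and 34.3 with C, 52.1 and 55.4 with 5hmC) and AGTCCCCC (15.3 and 14.4, then 23.4 and 24.5) rest on 1 probe each, and CCCCGGCC (16.3 and 15.8, then 25.1 and 26.7) on 2. In fluorescence the CCCCCGGC probe was dimmer with 5hmC, at 10887.5 and 12120 against 16679 and 22450.5. By composition, 8-mers with 0 C on the modified strand were higher in 0.961% and lower in 0.259%, those with 1 C in 0.629% and 4.41%, with 2 C in 0.323% and 6.59%, with 3 C in 0.147% and 5.97%, with 4 C in 0.360% and 4.81%, with 5 C in 0.682% and 3.03%, and with 6 C in 2.34% and 1.75%; none of the 9 with 7 C was called. By CpG, 8-mers with 0 CG were lower in 1.76%, those with 1 in 9.30% and those with 2 in 15.9%. Beside 5.00% lower and 0.448% higher among all 8-mers, control sites for other families had 0 lower and 1 higher of 94 (GC box), 0 and 1 of 95 (ETS), 0 and 2 of 96 (GATA) and 3 and 0 of 48 (homeodomain), and TTAATTAA had 0.17 and 0.01 with C and 0.62 and 0.57 with 5hmC.

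Against the ATF1 arrays with 5mC, z-scores with 5hmC were lower at CGCAA and higher at TGATGCAA. By limma 2100 8-mers (3.22%) differed, 1647 (2.53%) lower and 453 (0.696%) higher with 5hmC than with 5mC. The higher ones were 21.6% of the calls on the z-score scale, 56.1% on the log2 scale and 38.6% after quantile normalization. With 5mC TGATGCAA had 18.3 and 24.5, below the 5hmC arrays by 20.3 z units (adjusted p = 0.00754), a gap that also passed on the log2 scale (1.09). In fluorescence the order was the opposite: the background-subtracted median of its probes was 20907 and 25094.5 with 5mC and 8835.5 and 9050 with 5hmC, on arrays that differed in overall brightness. CTACGCAA had 31.9 and 33.8 with 5mC, 26.2 units above its 5hmC mean (adjusted p = 0.000788), TACGCAAT had 33.6 and 37.0 against 13.7 and 9.47 with 5hmC, and TTGCGCAA had 12.1 and 14.1 (adjusted p = 0.00396). Over the list 167 of 239 8-mers with CGCAA and 9 of 15 with the C/EBP palindrome were lower with 5hmC than with 5mC. In the TGCAA list 34 of 246 were lower and 1 was higher. The CRE did not show such a gap, with 6.69 and 8.59 for TGACGTCA with 5mC and a difference of 1.21 (adjusted p = 0.939). The 5mC arrays were brighter, with a median probe signal of 4316 and 4286. The C arrays entered this contrast only through the shared spread, and its count was 760 and 756 without C replicate 1 and 2, 5109 and 3484 without 5hmC replicate 1 and 2, and 472 with all 18 arrays.

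CREB1 was measured on the same design. For CREB1, TGATGCAA went from 8.81 and 15.4 with C to 113 and 164 with 5hmC, and TGACGTCA from 193 and 136 to 27.5 and 44.9. The ATF1 rise of TGATGCAA minus that of CREB1 was -89.6 z units, which did not pass (interaction in limma, adjusted p = 0.0885). Only 7 8-mers (0.0107%) passed this test, and 4585 did at an unadjusted p under 0.05. In each of the 7 the fall was smaller for ATF1, which started lower: CGTCACTT went from 8.64 and 10.6 to -1.19 and -2.29 for ATF1 and from 36.3 and 44.2 to -0.72 and 0.19 for CREB1. The count was 0 on the log2 scale and without C replicate 1, C replicate 2 or 5hmC replicate 1, 1 without 5hmC replicate 2, and 140 with all 18 arrays.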

How the data were processed

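Per the file headers, the authors deposited for every probe of an array its median intensity and that of the background around it, both linear fluorescence values. They also deposited a z-score, a score per 8-mer and array; the labels and headers read here state neither its computation nor the scanner settings. For the main test the z-scores of the 6 ATF1 arrays were fitted in limma (version 3.58.1, R 4.3.3) with 1 mean per group, moderation with a mean-variance trend (3 residual and 9.4 prior degrees of freedom), two-sided tests and Benjamini-Hochberg adjustment at 0.05 over the 65121 8-mers that a probe carries; 409 without a probe were left out. Probe signals were background-corrected (normexp, offset 50), put on the log2 scale, centred on the array median and tested likewise. Strand-dependence was tested on 32225 within-array differences, and the comparison with CREB1 as an interaction over 12 arrays. A probe at 65000 or more was taken as saturated. Python 3.11.15 did the other steps.

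Lists take each 8-mer once, by first match, and were described by counts. The named 8-mers are key sites, the 10 largest rises and falls, the 5 highest of each group, the 5 largest strand differences in each direction and the 3 largest differences from 5mC and from CREB1; single-base variants of TGACGTCA and TGATGCAA could be named too. Probes HK06813, HK15473, HK17739, HK16829 and HK10578 were chosen after their values were seen. The sites, lists and tests were chosen with earlier results of these data known. The main test of 8-mers was also run on simulated data. Alternatives were other sets of arrays, no trend, the replicate number as a block, quantile normalization, log2 signals with and without saturated probes, 10 or more probes per 8-mer, other background corrections and leaving out each array. Same-numbered C and 5hmC arrays deviated together only weakly (Pearson r of 0.218 across 8-mers; -0.05 for C with 5mC and -0.126 for 5hmC with 5mC), so the numbers were not taken as pairs. The number of arrays limits the precision.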

Additional observations from a re-analysis of the deposited data

Results flagged for a closer look

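The effect of 5hmC differed between ATF1 and CREB1 by the interaction test in limma for 3 8-mers with CGTCA or ACGTCA that have the largest such difference. The fall with 5hmC was smaller for ATF1 by 29.1 z units for CGTCACTT, by 19.2 for CACGTCAA and by 17.7 for ACGTCAGG (adjusted p of 0.02, 0.02 and 0.0439). The mean z-score of CGTCACTT with C was 9.64 for ATF1 and 40.2 for CREB1, and both proteins were near 0 with 5hmC. On the log2 scale no 8-mer passed this test.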

How the results depend on the processing

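Direction held for most named changes, but the counts of calls moved with the scale and with the choice of arrays. Blocking on the replicate number (replicate block), 3890 8-mers changed, 345 higher and 3545 lower, and the block moved no count of calls by over 1.5 times; the numbers were not taken as pairs.

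With all 18 arrays 1418 8-mers changed (65 higher, 1353 lower), 76 pairs depended on the strand, 472 8-mers differed from 5mC and 140 from CREB1. With only the C and 5hmC arrays 143 8-mers were higher, and 0 differed from CREB1. After quantile normalization 1961 8-mers changed (1532 lower), 1075 probes changed and 3 8-mers differed from CREB1. In these 3 the change of ATF1 minus that of CREB1 was negative, whereas it was positive in all 7 of the main test. On the log2 scale 1200 8-mers were higher (1203 without saturated probes), 194 pairs depended on the strand (186), 9854 8-mers differed from 5mC (9804) and 0 from CREB1. Without a trend 1377 probes changed and 234 8-mers differed from CREB1. Without background correction 4249 probes changed, and with plain subtraction 1791. At a z-score of 3 or more 2355 8-mers were bound with C and 446 with 5hmC, and at 6 or more 810 and 90.

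Leaving out 1 array at a time gave 2068 to 5268 changed 8-mers (27 to 1447 higher, 2037 to 3821 lower), 861 to 2336 changed probes, 223 to 647 strand-dependent pairs, 756 to 5109 8-mers that differed from 5mC and 0 to 1 from CREB1.

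Some changes reversed. After quantile normalization TGACGCAA changed by 32.6, ATGACGCA by 21.2, GATGACGC by 11.4, CGATGACG by 11.0, CTACGCAA by 9.05 and CGACGCAA by 5.83. On the log2 scale CGACGCAA changed by 0.26 (0.42 without saturated probes), TTGAGGGG by 0.26 (0.26) and, without saturated probes, CTACGCAA by 0.0365. The log2 strand difference was -0.38 for ACGTCACC (-0.44 without saturated probes), 0.91 for ATGACGTA (1.21), -0.53 for CTACGTCA (-1.26) and 1.66 for TGACGTAA (1.61). Without single arrays the change ranged from -0.37 to 3.86 for TACGCAAT, -0.54 to 0.13 for TTGAGGGG, -0.57 to 0.51 for CGACGCAA, -4.13 to 0.45 for CTACGCAA and -0.0758 to 1.25 for TTGCGCAA, and the strand difference of ATGACTCA from -1.41 to 2.72. Of these, TGACGCAA after quantile normalization and TGACGTAA on the log2 scale passed the test in the reversed direction. The cause of these moves was not tested. Where probes of CRE sites were saturated with C, their falls may be understated. The median signal was 2.28 and 2.45 times the background on the 5hmC arrays.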
